A study of Mus musculus with 12 samples.

Results

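The 10 genes described here are *Srf*, which encodes serum response factor, and 9 genes of the contractile and actin-binding cytoskeleton, *Acta2*, *Actg2*, *Tagln*, *Cnn1*, *Cnn2*, *Myl9*, *Vcl*, *Flna* and *Tpm1*. They were taken from a list of gene names, were matched by symbol in the table of FPKM values, and were taken by Ensembl identifier from the count table. All 10 were found among 55141 genes, of which 31433 had at least 1 count. The samples were gastruloids, stem cell clusters that lay down an embryo-like body axis in culture. They were made from embryonic stem cells of the mouse line 129/svev, were seeded at 300 cells per well and received 3 µM of the Wnt activator CHIR99021 for 24 h from 48 h onwards. Gastruloids were embedded in a dextran hydrogel at 72 h or at 96 h after seeding, at a gel concentration, counted as reactive groups of its components, of either 1.0 or 1.5 mM, and all were released with dextranase and collected at 120 h. Embedding time therefore also set how long a gastruloid spent in the gel. The 4 groups held 3 libraries each, and a library pooled about 30 gastruloids. All groups were embedded, so the values below compare gels with gels and hold no free-floating control.

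Serum response factor binds the CArG box, a DNA element of CC, then 6 bases of A or T, then GG. It works with partner proteins of different kinds. The myocardin-related factors Mrtfa and Mrtfb are held in the cytoplasm by monomeric actin and are freed when actin polymerises, which links contractile gene expression to cell tension. Myocardin itself acts with serum response factor in cardiac and smooth muscle, and the ternary complex factors Elk1, Elk3 and Elk4 join it at immediate-early genes downstream of ERK signalling. In early embryos *Acta2* and *Tagln*, best known from smooth muscle, are also expressed in the forming heart.

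RefSeq promoters (GRCm38.p6, 250 bases before to 50 after the start site) were matched for 8 of the 10 genes, and 4 of these 8 held a CArG box. Over all 32851 promoters of the same length, 1.63% held it. The pattern reads the same on either strand, so 1 search covered both. The box lay 82 and 62 bases before the start site in *Srf*, 56 in *Cnn2*, 161 in *Myl9* and 227 in *Vcl*. The genes were listed as SRF targets or contractile actin genes, so this share is not independent of how they were chosen. The 4 promoters that carry the box are shown with the boxes in capitals, written 5′ to 3′ on the strand of the gene. The *Srf* promoter lies on the minus strand at chr17:46556113-46556412, that of *Cnn2* on the plus strand at chr10:79988350-79988649, that of *Myl9* on the plus strand at chr2:156775214-156775513 and that of *Vcl* on the plus strand at chr14:20929148-20929447.
Srf: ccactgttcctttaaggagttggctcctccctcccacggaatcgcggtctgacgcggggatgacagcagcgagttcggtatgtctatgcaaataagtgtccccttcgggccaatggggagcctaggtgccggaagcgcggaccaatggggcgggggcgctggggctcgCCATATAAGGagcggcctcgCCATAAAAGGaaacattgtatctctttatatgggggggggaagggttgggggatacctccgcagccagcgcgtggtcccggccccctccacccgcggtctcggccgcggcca
Cnn2: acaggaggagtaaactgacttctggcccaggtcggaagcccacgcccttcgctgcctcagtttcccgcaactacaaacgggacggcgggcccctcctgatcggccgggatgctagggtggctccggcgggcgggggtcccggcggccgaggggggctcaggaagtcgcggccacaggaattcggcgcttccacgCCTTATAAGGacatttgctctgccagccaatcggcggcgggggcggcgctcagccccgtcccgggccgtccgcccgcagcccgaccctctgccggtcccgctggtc
Myl9: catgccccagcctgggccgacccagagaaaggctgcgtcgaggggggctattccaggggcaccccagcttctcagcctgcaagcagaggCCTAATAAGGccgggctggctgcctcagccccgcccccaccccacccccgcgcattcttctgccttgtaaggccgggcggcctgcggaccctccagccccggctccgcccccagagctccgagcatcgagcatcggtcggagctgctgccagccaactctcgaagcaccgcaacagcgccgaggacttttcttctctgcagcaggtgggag
Vcl: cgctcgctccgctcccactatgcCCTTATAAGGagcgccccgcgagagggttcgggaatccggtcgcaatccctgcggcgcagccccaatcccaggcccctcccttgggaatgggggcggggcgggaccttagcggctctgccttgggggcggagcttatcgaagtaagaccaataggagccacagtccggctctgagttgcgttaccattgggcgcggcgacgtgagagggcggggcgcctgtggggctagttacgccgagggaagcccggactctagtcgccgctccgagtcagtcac
No exact box was found in this window for *Acta2*, *Cnn1*, *Flna* or *Tpm1*. Sites 1 base off the pattern were not counted, such as ccctatatgg and ccttgtttgg in the *Acta2* window, so an SRF site there is not excluded. The *Flna* window (chrX:74246485-74246784) lies inside the gene, which reaches to 74249820 on the minus strand, so its annotated 5′ end was not searched. *Tagln* and *Actg2* had no entry. Among related genes, all 3 matched promoters of the other actin isoforms held the box, against 3 of 23 for the other SRF targets and actin-binding genes.

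Total counts ran from 23011791 to 27609422 per library (median 25274302), and mitochondrial genes, 1.68% to 3.02% of them, were left out of the tests. A single gene, *CT010467.1*, took 0.207% to 6.12% of the counts. The methods call the 3 libraries of a group biological replicates. As a check of the tissue, the summed level of 5 endothelial markers ran from 193 to 309 CPM (read counts relative to the library total after TMM scaling) and that of 5 endoderm markers from 166 to 256 CPM. Defining smooth muscle genes were scarce, with *Myh11*, the smooth muscle myosin heavy chain, at 2 to 14 counts and *Lmod1*, a smooth muscle leiomodin, at 4 to 22 counts in a library. *Rgs5* and *Pdgfrb*, which mark pericytes and other mesenchyme, stood at 25.4 to 175 and 59.5 to 110 CPM. The libraries come from whole gastruloids, so a larger share of cells that express a gene and more RNA per cell cannot be told apart.

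The 10 genes differed widely in level. On the FPKM scale, which divides by transcript length and so allows genes to be compared, *Tpm1*, a tropomyosin that lines actin filaments, was highest at 193 ± 26.7 (SD, n = 12). *Flna*, the actin crosslinker filamin A, followed at 67.2 ± 8.46 FPKM. *Cnn2*, a calponin found outside muscle, stood at 27.6 ± 2.77 FPKM, *Vcl*, the focal adhesion protein vinculin, at 19.3 ± 1.66 FPKM and *Srf* itself at 19.1 ± 2.77 FPKM. *Vcl* and *Srf* did not differ beyond their spread, and the lowest library of *Cnn2* (22.7 FPKM) lay under the highest of *Srf* (23.6 FPKM).

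Genes associated with smooth muscle were far lower. *Myl9*, a regulatory light chain of non-muscle and smooth muscle myosin, stood at 4.59 ± 1.17 FPKM and *Acta2*, smooth muscle alpha-actin, at 2.30 ± 1.48 FPKM, with overlapping ranges. *Cnn1*, the smooth muscle calponin, was at 0.486 ± 0.244 FPKM and *Actg2*, enteric gamma-actin, at 0.214 ± 0.0790 FPKM. The ranges of *Acta2* and *Cnn1*, and of *Cnn1* and *Actg2*, overlapped as well. For comparison, the cytoplasmic actins *Actb* and *Actg1* stood at 1433 and 303 FPKM. *Tagln*, the smooth muscle protein transgelin, was listed at 0 FPKM in every library although it had 13 to 70 counts, as were 464 of 13470 genes whose mean reached 30 counts, so its level per length is not given.

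**Figure D1:**
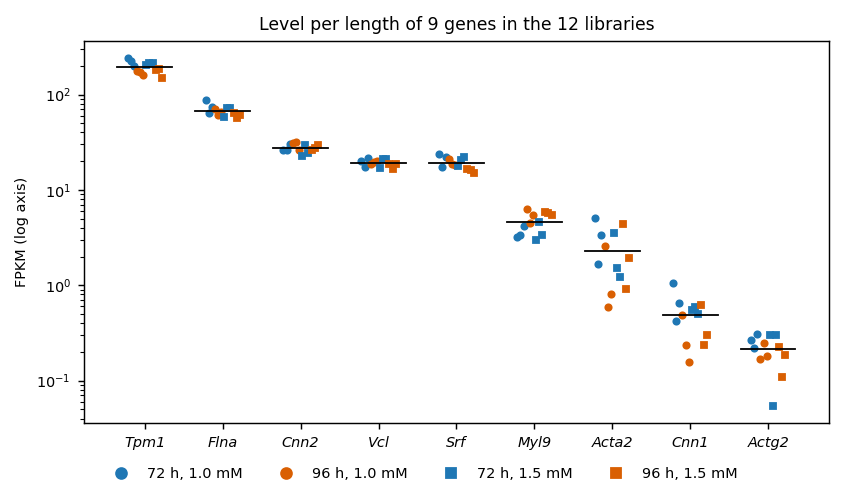
FPKM of 9 genes on a log axis, 1 point for each of the 12 libraries, with circles for 1.0 mM and squares for the 1.5 mM gel, blue for embedding at 72 h and orange for 96 h, and a line at the mean. *Tpm1* (mean 193 FPKM) leads and *Actg2* (0.214 FPKM) is lowest, and *Acta2* and *Cnn1* spread most widely between libraries.

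The first question was whether the time of embedding altered these genes. Across both gels, *Tpm1* and *Srf* rose and *Myl9* fell after embedding at 72 h relative to 96 h, while the other 7 genes did not pass the test. None of these 3 changes reached a log2 fold change of 1. Without replicate blocks, 2 of the 10 genes were called higher and 1 lower at an edgeR adjusted p below 0.05, against 31.1% of 16388 genes called in all, 16.2% higher and 14.8% lower. Of 10 genes tested in the 1.0 mM gel, 1 was called, which was *Tpm1*, against 9.24% of 15763 genes (5.97% higher, 3.27% lower). Of 9 genes tested in the 1.5 mM gel, 2 were called, *Srf* higher and *Myl9* lower, against 19.3% of 15683 genes (10.4% higher, 8.98% lower). Each of these shares, without the block, lay near its background. With replicate numbers as a block, 5 of the 10 were called across both gels, 3 of 10 in the 1.0 mM gel and 3 of 9 in the 1.5 mM gel. Over all genes the block called 5955 of 16388, 2122 of 15763 and 3885 of 15683 in that order. By the rule of the study, which also asks for an absolute log2 fold change above 1, 0 of the 10 genes were called in any of these comparisons, against 4.3%, 3.18% and 4.66% of genes in the 1.0 mM gel, the 1.5 mM gel and both. The median log2 fold change of the genes tested was 0.16, 0.09 and 0.20 in that order, against -0.01 over all genes in each case. Libraries did not overlap between embedding times for *Actg2*, *Myl9* and *Tpm1* in the 1.0 mM gel (28.4% of all genes) and for *Srf*, *Myl9* and *Tpm1* in the 1.5 mM gel (39.9% of all genes). Over all 12 libraries this held for *Tpm1* among the 10 genes and for 11.8% of all genes.

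**Figure D2:**
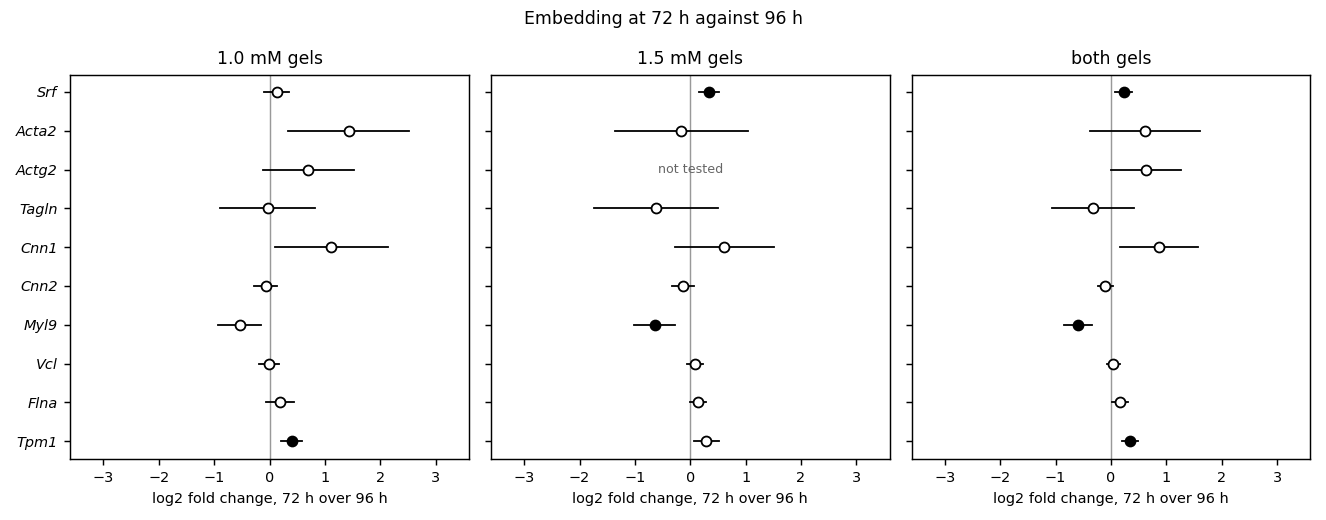
Log2 fold change of each gene, 72 h over 96 h, with its 95% interval from edgeR, in the 1.0 mM gel, in the 1.5 mM gel and across both. Filled points have an adjusted p below 0.05, which are *Tpm1* in the 1.0 mM gel, *Srf* and *Myl9* in the 1.5 mM gel, and all 3 across both gels. The intervals of *Acta2*, *Actg2*, *Tagln* and *Cnn1* are much wider than those of the other genes.

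*Tpm1* (ENSMUSG00000032366, chr9:67022590-67049406, minus strand) encodes tropomyosin isoforms that stabilise actin filaments in muscle and non-muscle cells. At 1.0 mM its level was 549, 517 and 460 CPM after embedding at 72 h and 398, 389 and 372 CPM at 96 h. At 1.5 mM it was 504, 494 and 484 CPM at 72 h and 419, 457 and 333 CPM at 96 h. All 6 libraries embedded at 72 h lay above all 6 embedded at 96 h. The log2 fold change was 0.40 in the 1.0 mM gel (SE 0.0881, edgeR adjusted p = 0.0159), and 0.34 across both gels (SE 0.0687, edgeR adjusted p = 0.00173), or 1.27-fold. The value at 1.5 mM was 0.29 (SE 0.102) and missed the threshold with an edgeR adjusted p of 0.0744, while DESeq2 gave 0.0256, and without replicate 2 embedded at 96 h edgeR gave 0.0478. With replicate numbers as a block (the pairing is described with the processing) edgeR called it, at 0.30 with an adjusted p of 0.0294. Over the alternatives the adjusted p in the 1.5 mM gel ran from 0.00556 to 0.169. The call in the 1.0 mM gel was lost without replicate 2 (edgeR adjusted p = 0.0640) or replicate 3 (0.0960) embedded at 96 h, over a range of 0.000367 to 0.0960. The call across both gels held in all 22 alternatives, where the log2 fold change lay between 0.30 and 0.39. Counts are per gene, so which *Tpm1* isoforms were made was not measured.

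*Myl9* (ENSMUSG00000067818, chr2:156775420-156781658, plus strand), whose promoter is shown above, encodes the light chain through which phosphorylation switches on non-muscle and smooth muscle myosin. It went the opposite way. The libraries at 1.0 mM stood at 5.34, 5.06 and 6.45 CPM at 72 h and 9.51, 6.78 and 8.35 CPM at 96 h. Those at 1.5 mM stood at 4.93, 7.17 and 5.19 CPM at 72 h and 9.00, 9.47 and 8.37 CPM at 96 h. In both gels the 2 embedding times were apart, although replicate 2 at 72 h in the gel of 1.5 mM (7.17 CPM) lay above replicate 2 at 96 h in the 1.0 mM gel (6.78 CPM). Across both gels the mean was 5.69 ± 0.906 CPM at 72 h and 8.58 ± 1.02 CPM at 96 h (SD, n = 6), a log2 difference of -0.59 (SE 0.118, edgeR adjusted p = 0.00178). In all 22 alternatives this call held, with values between -0.67 and -0.51. The fall within the 1.5 mM gel was -0.64 (SE 0.165, edgeR adjusted p = 0.0265). It lost its call without replicate 3 at 72 h (edgeR adjusted p = 0.0983) or without replicate 1 (0.0621), 2 (0.0949) or 3 (0.0634) at 96 h, over a range of 0.00558 to 0.0983. The difference at 1.0 mM was -0.54 (SE 0.176) with an edgeR adjusted p of 0.0841, and of 0.0487 with the block.

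*Srf* (ENSMUSG00000015605, chr17:46548329-46556175, minus strand) is itself a target of serum response factor, and its promoter, shown above, was the only 1 of the 8 with 2 boxes. *Srf* stood at 87.5, 66.9 and 81.8 CPM at 72 h and 78.6, 69.0 and 69.6 CPM at 96 h at 1.0 mM, with overlapping groups. At 1.5 mM the values were 75.1, 78.7 and 83.1 CPM at 72 h and 64.1, 66.5 and 56.2 CPM at 96 h, with no overlap. The log2 fold change was 0.13 in the 1.0 mM gel (SE 0.105, edgeR adjusted p = 0.520) and 0.34 in the 1.5 mM gel (SE 0.0786, edgeR adjusted p = 0.0185). Across both gels it was 0.23 (SE 0.0734, edgeR adjusted p = 0.0266), or 1.17-fold. The difference between the gels, tested as an interaction, was 0.22 (95% interval -0.08 to 0.52, edgeR adjusted p = 0.953). The call in the 1.5 mM gel was lost without replicate 2 (edgeR adjusted p = 0.0519) or 3 (0.0699) at 72 h or replicate 3 at 96 h (0.0678), over a range of 0.00225 to 0.0699. The call across both gels was lost without any of 4 libraries, replicate 1 at 72 h in the 1.0 mM gel (edgeR adjusted p = 0.0591) and, in the 1.5 mM gel, replicate 2 (0.0505) or 3 (0.0592) at 72 h or replicate 3 at 96 h (0.0714). On log2(FPKM + 1), limma gave an adjusted p of 0.0753, the highest of the range from 0.00223.

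**Figure D3:**
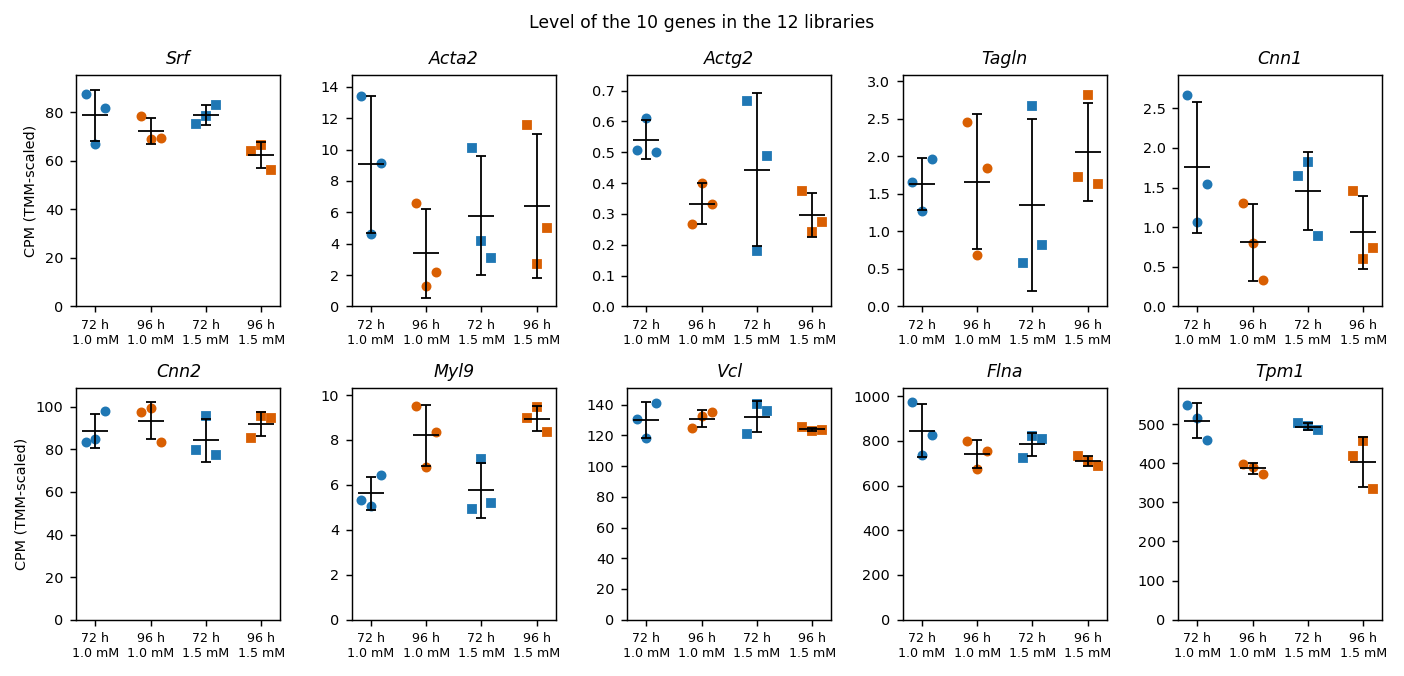
Level of the 10 genes in CPM, each axis starting at 0, with 1 point per library and the mean ± SD of each group of 3 (blue for 72 h, orange for 96 h, circles for 1.0 mM, squares for 1.5 mM). *Tpm1* is higher and *Myl9* lower after embedding at 72 h in both gels, and *Acta2* and *Cnn1* spread widely within each group.

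*Acta2* (ENSMUSG00000035783, chr19:34241090-34255590, minus strand) and *Cnn1* (ENSMUSG00000001349, chr9:22099216-22109630, plus strand) had the largest fold changes with embedding time in the 1.0 mM gel, but neither passed the test and both spread widely. *Acta2* was at 13.4, 4.62 and 9.16 CPM at 72 h and 6.59, 1.32 and 2.21 CPM at 96 h in the 1.0 mM gel. Its libraries at 1.5 mM held 10.1, 4.19 and 3.08 CPM at 72 h and 11.5, 2.69 and 5.02 CPM at 96 h. Within each group the library numbered 1 was the highest, and the groups overlapped. The log2 fold change was 1.43 in the 1.0 mM gel (SE 0.498, edgeR adjusted p = 0.106) and -0.16 in the 1.5 mM gel (SE 0.534, edgeR adjusted p = 0.860). Without replicate 1 at 96 h in the 1.0 mM gel, the former was 2.35 with an edgeR adjusted p of 0.00965, and without replicate 2 at 72 h it was 1.74 with 0.0410. With replicate numbers as a block it was called, at 1.57 with an edgeR adjusted p of 6.49e-04, and in each of the 3 same-numbered pairs the library at 72 h was the higher. The range over the alternatives was 1.09e-11, without a low-count filter, to 0.295. The sign at 1.5 mM turned without replicate 2 (0.03) or 3 (0.15) at 72 h or replicate 1 at 96 h (0.58). Across both gels, *Acta2* had a log2 fold change of 0.62 with a 95% interval from -0.37 to 1.61 (edgeR adjusted p = 0.332).

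*Cnn1* was at 2.67, 1.06 and 1.54 CPM at 72 h and 1.3, 0.803 and 0.331 CPM at 96 h in the 1.0 mM gel. The other gel held 1.64, 1.83 and 0.892 CPM at 72 h and 1.46, 0.602 and 0.740 CPM at 96 h. The means were higher at 72 h in both gels and the groups overlapped. Its log2 fold change across both gels was 0.87 (SE 0.333) and missed the threshold with an edgeR adjusted p of 0.0594, while DESeq2 gave 0.0424. It passed in edgeR without replicate 2 at 72 h (0.0410) or replicate 1 at 96 h (0.0449) in the 1.0 mM gel, and without replicate 3 at 72 h (0.0347) or replicate 1 at 96 h (0.0224) in the 1.5 mM gel. With the block it was called, at 0.91 with an edgeR adjusted p of 0.0107. The range over the alternatives was 0.00166 to 0.154.

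A list of heart markers was read beside these genes. All 12 tested had positive log2 fold changes, 72 h over 96 h, in each gel. In the 1.5 mM gel *Cnn1* stood at 0.62 but *Acta2* at -0.16, and neither passed the test. This list and the other marker lists below were chosen with earlier results of these data known. The list held 13 cardiac markers, transcription factors and sarcomere genes, and 11 of the 12 tested were higher after embedding at 72 h in the 1.0 mM gel (5.97% of all genes were), 2 of 12 in the 1.5 mM gel (10.4%) and 10 of 12 across both (16.2%), with 0 lower. With replicate numbers as a block the counts were 12, 7 and 11, where the block called 2122 of 15763, 3885 of 15683 and 5955 of 16388 genes. Their summed level was 270.4 to 610 CPM at 72 h and 41.4 to 133 CPM at 96 h in the 1.0 mM gel, and 176 to 414 against 113 to 194 CPM in the 1.5 mM gel. *Myl2*, the ventricular light chain, was at 0 counts in 2 libraries, and no other of these markers was at 0. The library numbered 1 had the highest sum in each group, as for *Acta2*. Over the 12 libraries Pearson's r between the log2 levels of the gene and the sum was 0.81 for *Acta2* and 0.87 for *Cnn1*, and 0.83 and 0.85 after the group means were taken out. It was 0.77 for *Tpm1* and -0.63 for *Myl9*, and 0.31 and -0.06 without the group means. The r of *Acta2* was not particular to the heart list. With summed neural markers it was 0.46, and 0.87 with group means taken out, above the cardiac value. Also with group means taken out, it was 0.61 for endothelial, 0.57 for endoderm and -0.51 for somite and dermomyotome markers. For *Cnn1* the neural value was 0.58 with group means taken out. These are descriptions over libraries that share their group and their depth. The 6 smooth muscle and pericyte markers summed to 179.7 to 324 CPM at 72 h and 151 to 233 CPM at 96 h. Of 5 tested across both gels, 3 were higher and 1 lower (16.2% and 14.8% of all genes were). *Pdgfrb* was lower at 72 h, by -0.57 in the 1.0 mM gel (edgeR adjusted p = 0.00634) and -0.41 in the 1.5 mM gel (0.00493). The r with the sum of the 6 was 0.84 for *Acta2* and 0.80 for *Cnn1* (0.77 and 0.73 with group means taken out). Somite and dermomyotome markers went the other way, at 104 to 236 CPM over the 6 libraries embedded at 72 h and 373 to 609 CPM over the 6 embedded at 96 h, with 5 of 5 lower across both gels (14.8% of all genes were), and r with their sum was -0.90 for *Tpm1* and 0.83 for *Myl9* (-0.60 and 0.38 with group means taken out). Pluripotency markers summed to 20.5 to 29.4 CPM at 72 h and 70.0 to 121 CPM at 96 h, with 4 of 4 lower across both gels, and r was -0.78 for *Tpm1* and 0.84 for *Myl9* (0.43 and 0.34 with group means taken out). Presomitic and tail bud markers summed to 185 to 295 CPM at 72 h and 75.2 to 152 CPM at 96 h, without overlap, although of 4 tested 1 was higher and 1 lower, and r was 0.76 for *Tpm1*, -0.78 for *Myl9* and 0.71 for *Srf* (0.11, 0.32 and -0.02 with group means taken out).

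Skeletal muscle markers were few and had the highest r with *Tpm1* of the marker lists. The 6 of the list, which include the actin *Acta1*, summed to 7.79 to 11.1 CPM at 72 h and 5.34 to 6.94 CPM at 96 h. In every library 4 or 5 of the 6 had under 10 counts, and *Myog*, a defining factor of muscle differentiation, was at 0 in all 12. Only 2 were tested, with 1 called higher across both gels, and their signs differed. *Tnnt3* stood at 0.76 in the 1.0 mM gel and 0.68 in the 1.5 mM gel, *Acta1* at -0.20 and -0.65. The sum therefore does not stand for the list as a set. The r with their sum was 0.92 for *Tpm1* and 0.71 for *Srf* (0.73 and 0.62 with group means taken out). The part of all these markers in the results was not tested.

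**Figure D4:**
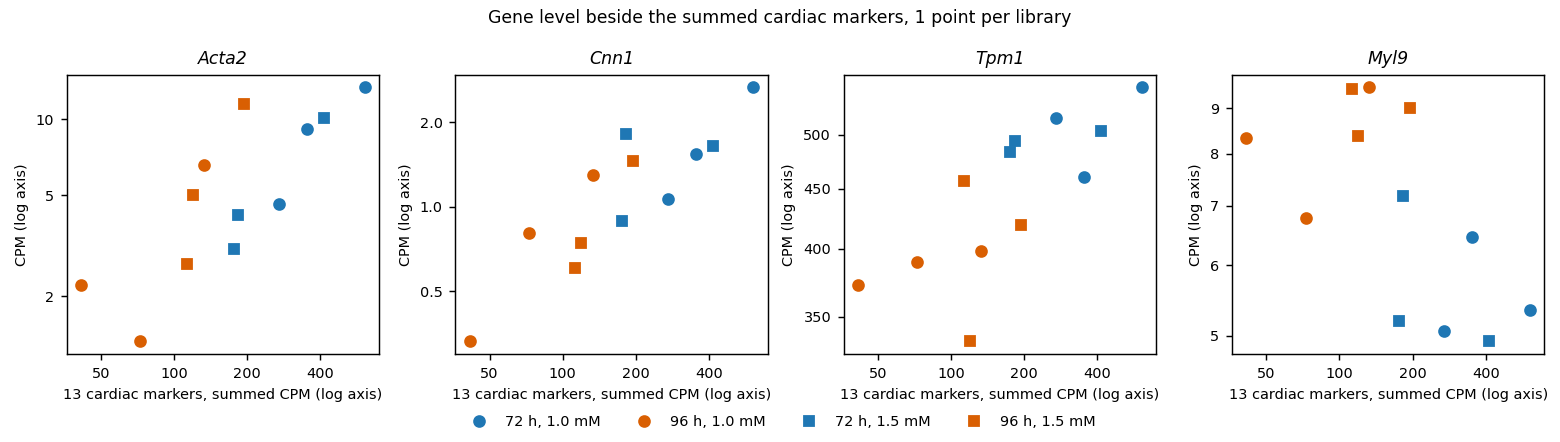
CPM of *Acta2*, *Cnn1*, *Tpm1* and *Myl9* against the summed CPM of 13 cardiac markers, both on log axes, with 1 point for each of the 12 libraries. *Acta2* and *Cnn1* rise with the sum within the colours as well as between them (r = 0.83 and 0.85 with group means taken out), while *Tpm1* and *Myl9* separate by embedding time.

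*Tagln* (ENSMUSG00000032085, chr9:45929619-45936058, minus strand) and *Actg2* (ENSMUSG00000059430, chr6:83512905-83536265, minus strand) had few counts. *Tagln* was at 1.65, 1.27 and 1.96 CPM at 72 h and 2.45, 0.682 and 1.84 CPM at 96 h in the 1.0 mM gel, and at 0.578, 2.67 and 0.811 CPM against 1.72, 2.81 and 1.64 CPM in the 1.5 mM gel. Its groups overlapped in both gels and no order was seen, with a log2 fold change of -0.32 across both (95% interval -1.06 to 0.42, edgeR adjusted p = 0.517). The value at 1.5 mM was -0.61 (edgeR adjusted p = 0.415), and -1.55 (0.0364) without replicate 2 at 72 h, over a range of 0.0364 to 0.753. An antisense gene, *Gm48529*, covers 51.6% of the 75-base windows of *Tagln* transcripts and had 41 to 65 counts itself. The strand setting of the counts is not stated, so reads of the pair may not be separated. *Actg2* had 4 to 15 counts in a library and did not pass the filter on low counts in the comparison of embedding times in the 1.5 mM gel. Its libraries at 72 h (0.499 to 0.613 CPM) lay above those at 96 h (0.268 to 0.401 CPM) in the 1.0 mM gel, with an edgeR adjusted p of 0.304. At 1.5 mM it stood at 0.666, 0.178 and 0.487 CPM at 72 h and 0.375, 0.241 and 0.273 CPM at 96 h, with overlap, and across both gels the edgeR adjusted p was 0.116. Without replicate 2 at 72 h in the gel of 1.5 mM, at 4 counts, the latter was 0.0368, over a range of 0.0368 to 0.551.

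The broadly expressed cytoskeletal genes were measured most precisely. *Vcl* (ENSMUSG00000021823, chr14:20929398-21033676, plus strand), which links integrin adhesions to actin, ran from 118 to 141 CPM in all 12 libraries, and its log2 fold change across both gels was 0.04 with a 95% interval from -0.07 to 0.15 (edgeR adjusted p = 0.586). The 3' end of *Vcl* overlaps *Ap3m1* on the other strand, which covers 24.9% of its 75-base windows. *Cnn2* (ENSMUSG00000004665, chr10:79988584-79996062, plus strand), whose product binds actin in many cell types, ran from 77.2 to 99.5 CPM, with a log2 fold change of -0.10 (95% interval -0.24 to 0.04, edgeR adjusted p = 0.274). *Flna* (ENSMUSG00000031328, chrX:74223461-74249820, minus strand), which crosslinks actin filaments and ties them to the membrane, ran from 725 to 973 CPM at 72 h and from 675 to 799 CPM at 96 h. Its log2 fold change was 0.17 (95% interval 0.02 to 0.31) with an edgeR adjusted p of 0.0705, which became 0.0213 without replicate 2 at 72 h in the 1.0 mM gel and 0.0475 with the block, over a range of 0.0213 to 0.166. The 1.5 mM gel alone gave 0.14 (edgeR adjusted p = 0.162), and 0.19 (0.0402) without replicate 1 at 72 h, over a range of 0.0402 to 0.393. The intervals of *Vcl* and *Cnn2* leave room for a difference of at most 0.24 on the log2 scale, while those of *Acta2* and *Tagln* reach beyond 1.

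Genes of the pathway outside the 10 were read from lists of gene names, chosen with earlier results of these data known. Of 10 partner factors of serum response factor, 6 were higher and 1 lower after embedding at 72 h across both gels, where 16.2% of all genes were higher and 14.8% lower. Among them were factors known from the heart. *Gata6* had a log2 fold change of 1.22 (edgeR adjusted p = 7.10e-05), *Gata4* of 1.95 (1.66e-04) and *Nkx2-5* of 1.87 (4.95e-04). *Elk3*, a ternary complex factor, fell by 0.53 on the log2 scale (edgeR adjusted p = 3.44e-04). *Gata4* and *Nkx2-5* are also among the cardiac markers above. *Myocd*, which encodes myocardin, had a log2 fold change of 1.91 (edgeR adjusted p = 6.81e-04). The actin-regulated cofactors, named here for that role after their values were seen, stood at 0.17 for *Mrtfb* (edgeR adjusted p = 0.0417) and 0.06 for *Mrtfa* (0.395). With replicate numbers as a block, 7 of the 10 partner factors were higher and 1 lower across both gels. The block called 5955 of 16388 genes there.

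Among 28 other SRF targets and actin-binding genes, 8 were higher and 0 lower across both gels, where 16.2% of all genes were higher and 14.8% lower. Among them were *Pdlim5* (log2 fold change 0.57), *Cald1* (0.37), *Fhl1* (0.32) and *Flnc* (0.43), with edgeR adjusted p-values from 1.20e-05 to 8.29e-04. Within the 1.5 mM gel, where 10.4% of all genes were higher and 8.98% lower, 6 were higher and 1 was lower, the matricellular gene *Ccn1*, named after its value was seen (log2 fold change -0.78, edgeR adjusted p = 0.0202). With replicate numbers as a block, 9 of the 28 were higher and 1 lower across both gels, and 8 higher and 2 lower in the 1.5 mM gel. Over all genes the block called 5955 of 16388 and 3885 of 15683. Of the other actin isoforms, *Actg1* was higher (0.25, edgeR adjusted p = 0.00491), and *Actb* (-0.01), *Actc1* (0.42) and *Acta1* (-0.45) did not pass. Among 6 tested smooth muscle identity genes outside the 10, 3 were higher (16.2% of all genes were), *Myocd*, the cytoskeletal gene *Smtn* (0.27, edgeR adjusted p = 0.0140) and *Des*, which encodes desmin (0.61, edgeR adjusted p = 0.0399). The other 3 did not pass. *Myocd* is also counted among the partner factors, and *Myocd* and *Des* among the smooth muscle and pericyte markers, so these counts are not independent. The medians of these lists, from 0.06 to 0.40, stand beside -0.01 over all genes, and the lists were not tested as sets.

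The second question was whether gel concentration altered the same genes. None of the 10 genes passed the test between the 1.0 mM gel and the 1.5 mM gel, whether at 72 h (0 of 10 called, against 0% of 15563 genes), at 96 h (0 of 9 tested, against 0% of 15861 genes) or across both times (0 of 10, against 0.0305% of 16388 genes). At an unadjusted p below 0.05, edgeR had 1074 genes at 72 h and 1578 at 96 h. DESeq2 called 14 and 86 genes and limma-voom 0 and 2, and 0 of the 10 genes were among them. With replicate numbers as a block edgeR called 43 genes at 72 h, 289 at 96 h and 81 across both times, of which 1 of the 10, *Acta2* at 96 h. The intervals across both times were narrow for the broadly expressed genes, at -0.26 to 0.05 for *Srf*, -0.14 to 0.09 for *Vcl*, -0.23 to 0.06 for *Flna*, -0.19 to 0.09 for *Cnn2* and -0.14 to 0.15 for *Tpm1*. For *Acta2* the interval was -0.87 to 1.10, which leaves room for a change of 1 on the log2 scale.

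At 96 h, the *Srf* libraries in the 1.5 mM gel (56.2 to 66.5 CPM) all lay below those in the 1.0 mM gel (69.0 to 78.6 CPM). It was the only 1 of the 10 genes whose groups did not overlap there, against 15.5% of all genes. The log2 fold change was -0.22 (SE 0.0802, edgeR adjusted p = 0.417). At 72 h the groups overlapped, with a log2 fold change of 0.00329 (95% interval -0.24 to 0.24), and 0 of the 10 genes were without overlap there, against 11.1% of all genes. Across both times 0 of the 10 were without overlap, against 0.476% of all genes. *Acta2* had opposite signs at the embedding times, -0.65 at 72 h (edgeR adjusted p = 0.762) and 0.93 at 96 h (0.617). With the block it was called higher in the 1.5 mM gel at 96 h, at 0.98 with an edgeR adjusted p of 0.00352. The block also called 7 of 12 cardiac markers higher in the 1.5 mM gel at 96 h and 5 of 12 lower at 72 h, where 0 were called without it. Over all genes the block called 289 of 15861 at 96 h and 43 of 15563 at 72 h.

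The immediate-early genes, another set of SRF targets, are transcribed within minutes of a stimulus, through serum response factor and ternary complex factors. This list, too, was chosen with earlier results of these data known. All 7 on the list had negative log2 fold changes, 1.5 mM over 1.0 mM, at 72 h and at 96 h. Across both times edgeR called 1 of 7, against 0.0183% of all genes called lower, and DESeq2 called 7. With replicate numbers as a block edgeR called 4, *Egr1*, *Fosb*, *Fos* and *Junb*, with 3 of 7 lower at 72 h and 6 of 7 at 96 h. Over all genes the block called 81 of 16388 across both times, 43 of 15563 at 72 h and 289 of 15861 at 96 h. The gene called without the block was *Egr1*, a zinc-finger transcription factor. In the 1.0 mM gel it stood at 113, 68.1 and 48.9 CPM at 72 h and 132, 36.6 and 41.4 CPM at 96 h, against 23.9, 14.3 and 11 CPM and 21.7, 10.6 and 15.6 CPM in the 1.5 mM gel. All 6 libraries in the 1.5 mM gel lay below all 6 in the 1.0 mM gel, a log2 difference of -2.17 (SE 0.319, edgeR adjusted p = 0.0257). For *Fosb* (-3.63) and *Fos* (-2.51), both subunits of AP-1, the edgeR adjusted p-values were 0.0707 and 0.109. The gastruloids of all groups had been left in dextranase for more than 20 min before collection, until they moved freely. The methods give no time for each gel, so time in dextranase and gel concentration cannot be told apart for these genes. With embedding time *Egr1* had a log2 fold change of 0.09 across both gels (edgeR adjusted p = 0.852), and 2 of the 7, *Ier2* and *Junb*, were lower at 72 h, as were 14.8% of all genes.

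**Figure D5:**
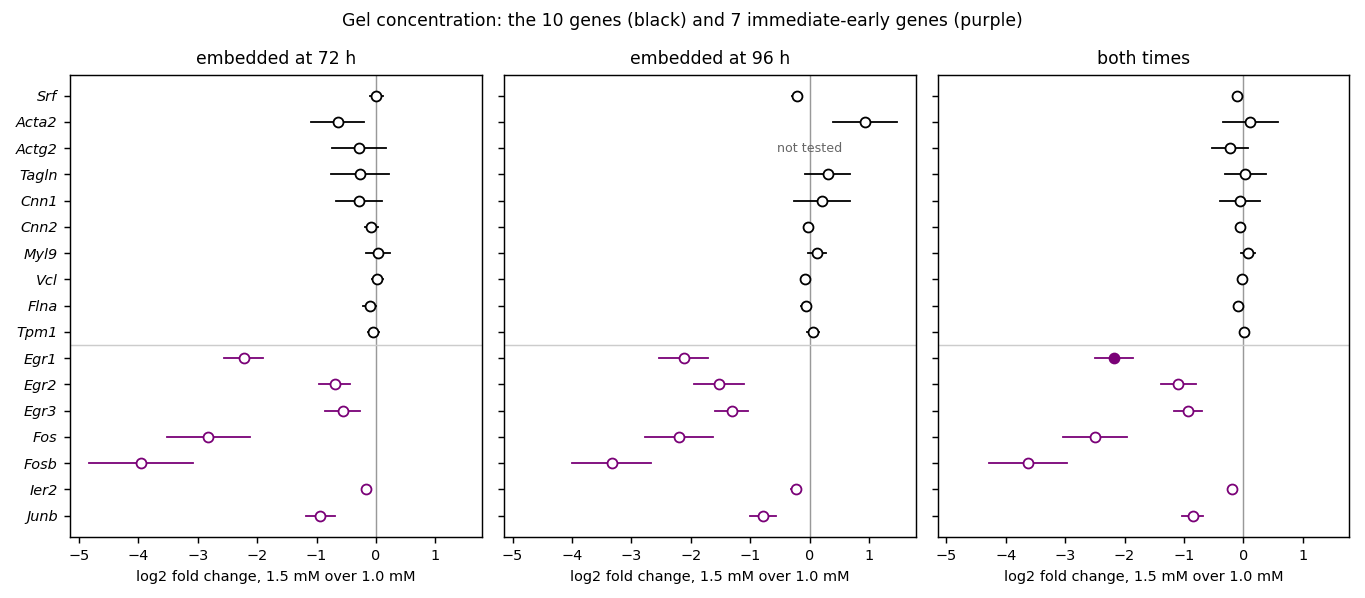
Log2 fold change, 1.5 mM over 1.0 mM, of the 10 genes (black) and of 7 immediate-early genes (purple), at 72 h, at 96 h and across both times, with bars of 1 SE from edgeR. The filled point, *Egr1* across both times (-2.17), has an adjusted p below 0.05. The 10 genes scatter around 0, while the 7 immediate-early genes all lie below it.

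An interaction term, fitted on the 12 libraries together, asked whether the response to embedding time differed between the gels. None of the 10 genes passed, against 0% of 16388 genes, of which 708 had an unadjusted p below 0.05 in edgeR, and DESeq2 called 2 genes, limma-voom 0 and the fit with the block 5, with 0 of the 10 genes among the last. The largest estimate was that of *Acta2*, -1.57 with a 95% interval from -3.39 to 0.24 (edgeR adjusted p = 0.953), so that its estimates of 1.43 in the 1.0 mM gel and -0.16 in the 1.5 mM gel are not shown to differ. The intervals were -0.40 to 0.20 for *Tpm1* and -0.61 to 0.43 for *Myl9*.

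The 10 genes did not move as a single group. Over the 45 pairs, Pearson's r of log2 CPM across the 12 libraries ran from -0.80 to 0.83 with a median of 0.12, and was above 0.5 for 11 pairs and below -0.5 for 4. The lowest was that of *Actg2* and *Myl9*. These values describe libraries of 4 groups that share depth and composition. *Srf* was closest to *Flna* (r = 0.83, and 0.82 with group means taken out), and *Acta2* to *Cnn1* (0.77 and 0.73). *Tpm1* and *Myl9* had an r of -0.70, which was 0.02 with group means taken out. Among all genes whose mean reached 100 counts, the 3 most like *Acta2* were *Mtus1* (r = 0.94), the atrial myosin heavy chain *Myh6* (0.93) and *5430431A17Rik* (0.92). Those most like *Cnn1* were *Unc5c* (0.91), *Shc2* (0.90) and cardiac troponin T, *Tnnt2* (0.90). For *Srf* they were *Gk5* (0.93), *AU022252* (0.92) and *Tug1* (0.92), for *Tpm1* they were *Cdh4*, *Smim10l2a* and *Scara5* (0.95 each), and for *Myl9* they were *Alkbh2* (0.94), *Inpp5d* (0.93) and *Zfp219* (0.93). *Cnn2* was followed by *Fzr1* (0.88), *Prdx5* (0.87) and *Zyx* (0.86), the last a focal adhesion protein and SRF target. *Vcl* was followed by *Gid8* (0.94), *Fam168b* (0.91) and *Dis3l2* (0.89), and *Flna* by *Fbxl18* (0.93), *Lrp1* (0.90) and *Nrd1* (0.90). For the sparse gene *Actg2* the closest were *Hmox1* (0.88), *Nars2* (0.88) and *Leprot* (0.84). For *Tagln* they were *Syvn1* (0.84), *Gm12992* (0.75) and *Zfp82* (0.75). These were the highest among 11343 or 11344 genes searched over only 12 libraries.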

How the data were processed

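Per the methods of the study, paired-end reads were trimmed with cutadapt 4.4 and aligned to mm10 with STAR 2.7.10b, using a custom Ensembl annotation. The authors deposited raw counts per gene and FPKM values from Cufflinks 2.2.1.3, in which mitochondrial genes were masked. The methods credit STAR with the counts, and their strand setting is not given in the sources used here. The table of the authors' own comparisons holds log2 fold changes, adjusted p-values and calls, and was not used.

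From the deposited counts, mitochondrial genes were removed and genes were kept by filterByExpr (minimum count 10, minimum total 15). Groups were compared with edgeR's quasi-likelihood test (version 4.0.16, R 4.3.3, TMM scaling), pairwise or, for both gels, both times and the interaction, over all 12 libraries. P-values were two-sided and adjusted over all genes by Benjamini-Hochberg, with calls below 0.05. Fold changes are 72 h over 96 h or 1.5 mM over 1.0 mM. Total counts of 23011791 to 27609422 set the counting precision. The scripts were tested on simulated data. FPKM served for levels between genes. The deposited FPKM were also tested with limma 3.58.1 on log2(FPKM + 1) and log2(FPKM + 0.1).

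All 10 genes are named. From each related list, at most the 4 genes with the smallest adjusted p in a comparison are named, and for each of the 10 genes the 3 with the highest r. *Mrtfa*, *Mrtfb* and *Ccn1* are named outside this rule, after their values were seen. A further list of genes is not reported here. The members and lists were chosen with earlier results of these data known. Alternatives were DESeq2 1.42.0, limma-voom, RLE and upper-quartile scaling, other filters, mitochondrial genes kept, 1 fit of all libraries, a replicate block, other call rules and each library left out in turn.

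The methods speak of each replicate as holding gastruloids of every condition, and the labels number replicates alike in the 4 groups, so libraries were paired by number. A shared day or culture is not stated. The deviations of same-numbered libraries from their group means correlated above 0.1 in 13 of 18 pairs (0.0365 to 0.313), against -0.262 to 0.111 over 36 pairs of different numbers. By the mean r over the other groups, each of the 12 libraries correlated best with its own number. Single pairs could differ. In the 1.0 mM gel, replicate 3 at 72 h had an r of 0.111 with replicate 2 at 96 h and of 0.0439 with replicate 3. The main tests have no block, since the methods name none. Blocked values stand beside the results they change. The block for the related lists was added after seeing the data.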

Additional observations from a re-analysis of the deposited data

How the results depend on the processing

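Over 1284 repeats of the log2 fold changes of the 10 genes under another setting, 1168 kept their direction and their side of the threshold, 20 lost a call, 29 gained one and 67 changed sign. None of the 6 called results changed sign, and the cause of the other changes was not tested. No other scaling moved the median of all genes by more than 0.0321. With the rule of the study, 0 of the 10 genes were called in each comparison of embedding time, and at an adjusted p below 0.01, 0 were called in 1.0 mM and 0 in 1.5 mM gels. Without a low-count filter 4 genes were called in 1.0 mM gels, 6 across both gels, 1 between gels at 96 h and 1 in the interaction, in both cases *Acta2*. On log2(FPKM + 1), 0 were called in 1.0 mM and 0 in 1.5 mM gels, and on log2(FPKM + 0.1), 0 and 1. With each library left out in turn the counts ran from 0 to 2 in 1.0 mM gels, from 0 to 3 in 1.5 mM gels and from 2 to 5 across both. Over all genes, the 1457 calls in 1.0 mM gels became 2283 without a filter and 640 or 690 on FPKM, the 3033 in 1.5 mM gels became 1199 or 1244 on FPKM, and the 5 between gels across both times became 211 with DESeq2, 512 without a filter and 9 with upper-quartile scaling. Leaving out 1 library moved these totals too. The 1457 became 810 and 731 without replicates 2 and 3 embedded at 96 h, and the 3033 became 1614 and 1342 without replicates 2 and 3 at 72 h and 1181 and 1224 without replicates 2 and 3 at 96 h. The 5 between gels across both times became 80 without replicate 1 embedded at 72 h in the 1.5 mM gel and 2 without replicate 2 or 3 there. In the 1.0 mM gel they became 2 and 12 without replicates 1 and 2 at 72 h and 3, 3 and 8 without replicates 1, 2 and 3 at 96 h, and in the 1.5 mM gel 3 without replicate 2 at 96 h. The total across both gels ran from 3944 to 5671, and the 0 between gels at 96 h became 12 and 26 without replicates 1 and 3 in the 1.5 mM gel. Without a filter 322 genes were called between gels at 72 h, 333 at 96 h and 238 in the interaction.

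With the replicate number as a block, 3 of the 10 genes were called in 1.0 mM gels, 5 across both gels and 1 between gels at 96 h (*Acta2*, edgeR adjusted p = 0.00352). The block also turned *Tagln* to 0.058 in 1.0 mM gels and -0.014 between gels across both times, and outside the values given with the results it changed no other call of the 10 genes.

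Signs also turned near 0. *Tagln* was 0.12 in 1.0 mM gels and -0.00373 between gels in limma-voom. Between gels at 72 h, *Srf* was -0.024 with upper-quartile scaling, -6.28e-05 with a minimum of 1 CPM, -0.047 on log2(FPKM + 1) and -0.048 on log2(FPKM + 0.1), *Vcl* was -0.00267 with upper-quartile scaling and *Myl9* -0.00176 on log2(FPKM + 0.1). Across both times *Cnn1* was 0.033 on log2(FPKM + 0.1), and *Tpm1* -0.0298 and -0.0299 on the 2 FPKM scales. With each library left out in turn, the log2 fold change with embedding time ran from -0.39 to 0.36 for *Tagln* and -0.068 to 0.059 for *Vcl* in 1.0 mM gels, and from -0.84 to 0.58 for *Acta2* in 1.5 mM gels. Between gels at 72 h it ran from -0.10 to 0.087 for *Srf*, -0.68 to 0.087 for *Actg2*, -1.21 to 0.081 for *Tagln*, -0.54 to 0.15 for *Cnn1*, -0.18 to 0.00119 for *Cnn2*, -0.15 to 0.15 for *Myl9*, -0.041 to 0.088 for *Vcl*, -0.20 to 0.00594 for *Flna* and -0.11 to 0.016 for *Tpm1*. At 96 h it ran from -0.060 to 0.69 for *Tagln*, -0.25 to 0.74 for *Cnn1*, -0.10 to 0.040 for *Cnn2* and -0.040 to 0.18 for *Tpm1*. Across both times it ran from -0.30 to 0.38 for *Acta2*, -0.26 to 0.21 for *Tagln*, -0.27 to 0.19 for *Cnn1* and -0.043 to 0.057 for *Tpm1*, and the interaction from -0.53 to 0.25 for *Actg2*, -0.15 to 0.027 for *Cnn2*, -0.27 to 0.024 for *Myl9* and -0.14 to 0.071 for *Flna*. Depth limits *Actg2*, *Tagln* and *Cnn1*, which had as few as 4, 13 and 9 counts in a library.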
